A study of Mus musculus with 6 samples.

Results

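The accessible chromatin around Pdk4 and Txnip was described in the livers of fed and fasted C57BL/6 mice. The enzyme DNase I cuts preferentially in open chromatin, and a hotspot is a place where cut ends pile up. Hotspots of the 6 libraries that overlapped by at least 1 bp were merged into regions. The regions described here are all those overlapping mm9 chr6:5380000-5520000 (named for Pdk4) or mm9 chr3:96330000-96400000 (named for Txnip). There were 14 regions in the Pdk4 window and 15 in the Txnip window, 29 of 75169 regions on chromosomes 1 to 19 and X. They are numbered below by position within each window. Both windows were chosen with the difference between fed and fasted livers already known. Their densities and differences are therefore given as a description. Whether a region passed the threshold of a fit over all regions is stated to sort them, not as evidence that the loci respond to fasting. The annotation used here has no mm9 coordinates, so no region was placed in a promoter, exon or intron of either gene.

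Pdk4 encodes pyruvate dehydrogenase kinase 4, which sits in the mitochondrial matrix and phosphorylates the pyruvate dehydrogenase complex. Phosphorylation switches the complex off, so that pyruvate is not turned into acetyl-CoA and stays available for glucose synthesis while the tissue burns fatty acids. Txnip encodes thioredoxin-interacting protein, an alpha-arrestin that binds thioredoxin and lowers glucose uptake by promoting the internalisation of glucose transporters. Both genes restrain glucose use, and Pdk4 is a well-known fasting-induced gene of the liver. Transcription of Txnip is known to respond to glucose through the factors ChREBP and MondoA with their partner Mlx. In the gene order of RefSeq, Pdk4 lies between the protein-coding genes Asb4 and Dync1i1. Txnip lies between Hjv, which encodes the iron regulator hemojuvelin, and Polr3gl, which encodes an RNA polymerase III subunit. The non-coding gene Gm15441 overlaps the span of Txnip. A region of either window may serve one of these neighbours, which was not tested.

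The 250 bases before the start of each gene are shown because the factors that act on these genes in fasting bind DNA by its letters. The mm9 sequence under the regions themselves was not used here. They come from RefSeq, build GRCm38.p6, and their coordinates cannot be set against the mm9 positions of the regions. The Pdk4 stretch is chr6:5496279-5496528 on the minus strand, and the Txnip stretch is chr3:96557707-96557956 on the plus strand. Capitals mark matches to the motifs searched.
Pdk4: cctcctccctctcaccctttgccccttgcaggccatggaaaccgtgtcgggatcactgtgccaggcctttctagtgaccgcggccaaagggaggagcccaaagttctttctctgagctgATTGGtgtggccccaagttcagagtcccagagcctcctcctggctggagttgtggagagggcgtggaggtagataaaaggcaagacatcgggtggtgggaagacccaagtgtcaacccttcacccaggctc
Txnip: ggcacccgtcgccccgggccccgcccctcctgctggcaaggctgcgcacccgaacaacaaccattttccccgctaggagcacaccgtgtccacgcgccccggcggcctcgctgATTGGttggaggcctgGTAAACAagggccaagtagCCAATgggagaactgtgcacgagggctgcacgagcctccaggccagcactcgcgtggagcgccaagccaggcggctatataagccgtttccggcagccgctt

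Exact letters were searched on both strands. CCAAT, the NF-Y motif, matched once in the Pdk4 stretch (as ATTGG, starting 131 bases before the gene start). It matched at 2 places in the Txnip stretch, as ATTGG from base 137 and as CCAAT from base 102 before the start. Of all 32851 stretches of this length in the table, 33.8% held this motif. The FOXO motif TGTTTAC matched once in the Txnip stretch, as GTAAACA from base 121 before the start, and 3.17% of all stretches held it. FOXO factors are the insulin-restrained activators of fasting genes. The other motifs searched had 0 matches in either stretch. Among them were TGACGTCA (CREB), with a match in 1.55% of all stretches, CACGTG (E box), with 6.02%, and TATAAA (a core promoter element), with 12.4%. TNAAGGTCA (ERR) matched in 1.14% of them. Perfect full-length motifs of PPAR (the direct repeat known as DR1) and of the glucocorticoid receptor (its palindrome) matched in 0.0335% and 0.00913%. At shares this low, 0 matches says little of either. Near matches were not searched for, so 0 exact matches does not show that a core promoter element is absent. The Txnip stretch holds tataag and the Pdk4 stretch gataaa, both close to TATAAA. The carbohydrate response element, searched as 2 E boxes with 5 bases between, matched in 0 stretches of the table. This search for perfect letters thus says nothing of that element at Txnip or elsewhere. The Txnip stretch printed above does hold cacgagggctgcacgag, which is CACGAG 2 times with 5 bases between, a near match to those letters. How many other stretches hold such a near match was not counted. The stretches were 58.8% G or C for Pdk4 and 66.8% for Txnip, against a median of 52.4%.

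The series held 3 libraries from livers of mice fed ad libitum and 3 from livers of mice fasted for 24 h, all from the same strain and killed at 6:00 in the morning, when the lights come on. Replicates carry numbers, but nothing says that each was a separate animal, so the spread between them may be partly technical. A density from whole liver is an average over its cells, so more cells with an open site and a wider opening per cell cannot be told apart. Liver identity was not checked against marker genes, since regions were not assigned to genes. Lists held 49682 to 63476 hotspots. Every maximum density was a whole multiple of 1 step per library, and if that step is 1 tag, the greatest depth was that of fasted replicate 2 and fed replicate 3 (1.90 and 1.64 times the shallowest). On this reading the peaks of the 17 regions called in all libraries held 15 to 870 tags, so the weakest carry a large counting error. The value used below is the maximum tag density in the authors' deposited units, and differences are of log2(density + 1) after centring each library on its median over the 37044 regions called in all 6 libraries. The fit over all these regions was limma with Benjamini-Hochberg adjustment and a threshold of 0.05.

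Around Pdk4, 8 of the 14 regions were called in all 6 libraries, and 5 of these 8 rose in fasted livers (limma, adjusted p under 0.05), against a background of 7.89% of all shared regions. None of the 8 fell, against a background of 7.84%. Because the window was chosen on this contrast, nothing is read from these shares. The background itself depends on the centring, with 2921 regions higher and 2905 lower, and 1946 and 3189 with densities as deposited. The median log2 difference of the 8 regions was 0.75, and that of all shared regions was 0.03. Those that rose were regions 7, 8, 10, 11 and 12.

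**Figure D1:**
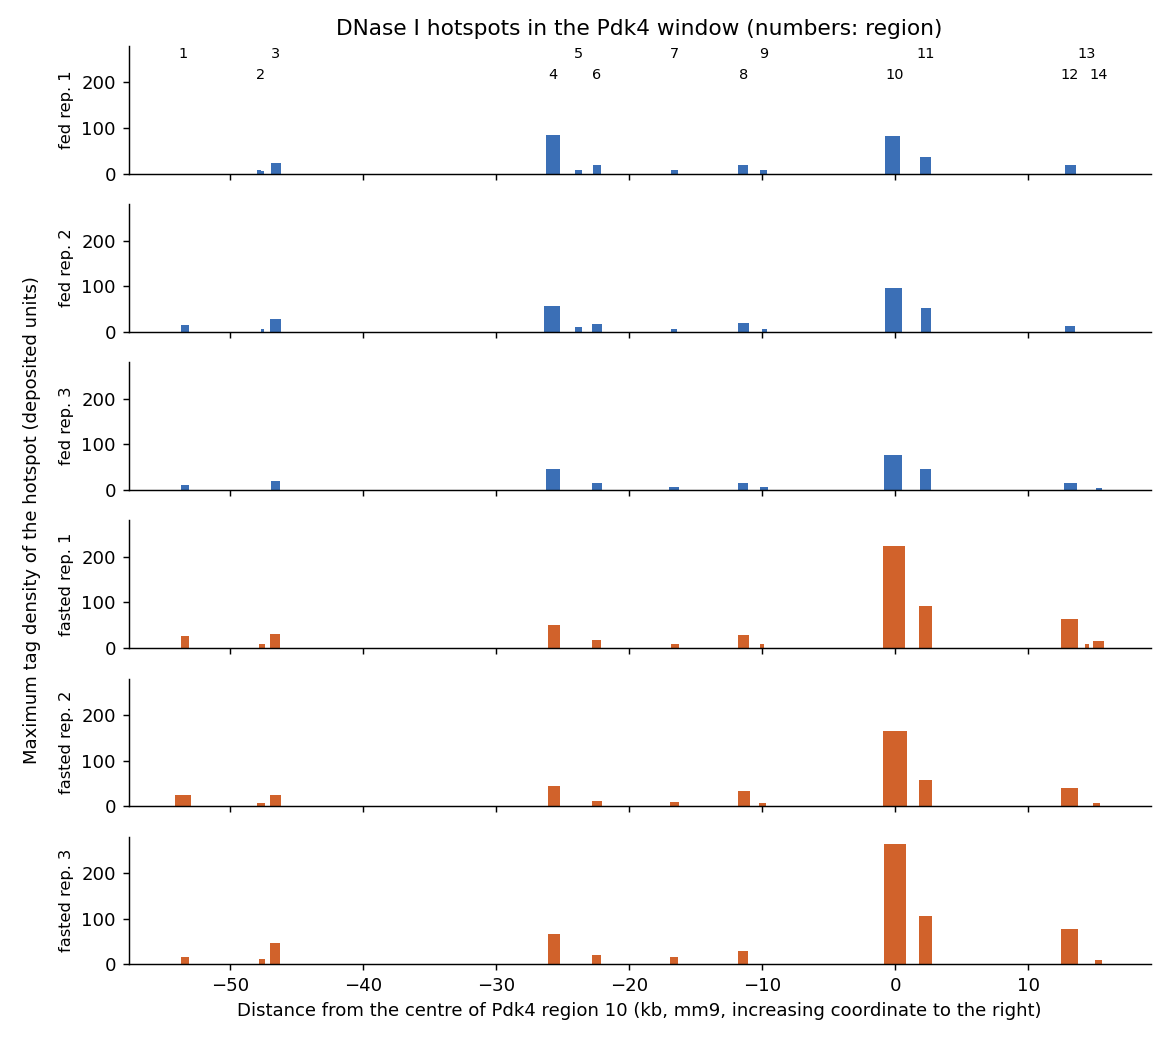
Maximum tag density (y axis, deposited units) of each hotspot in the Pdk4 window, plotted against distance in kb from the centre of region 10 (x axis), with 1 panel per library, fed in blue and fasted in orange. Bar width is the length of the hotspot, and numbers name the regions. Region 10 is the tallest in every fasted library, at 165 to 263, and stands at 77.4 to 94.8 in fed libraries.

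The strongest region of the window was region 10 (chr6:5445759-5447548). Its maximum density, in the order of replicates 1, 2 and 3 used throughout, was 83.1, 94.8 and 77.4 in fed livers and 224, 165 and 263 in fasted livers. All fasted libraries stood above all fed ones, with no overlap. The means were 85.1 ± 8.89 in fed and 217 ± 49.7 in fasted livers (SD, n = 3 each), and the log2 difference was 1.39 (SE 0.14). Over the 6 libraries its mean density stood at percentile 98.1 of all shared regions. That mean pools fed and fasted livers, and its rank in fed livers alone was not computed.

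Region 12 (chr6:5459121-5460402) showed the greatest difference of the window. Fed densities were 18.8, 12.0 and 15.3, and fasted densities 63.6, 39.1 and 76.3. It went from 15.4 ± 3.38 to 59.6 ± 18.9, a log2 difference of 1.93 (SE 0.21). In fed livers it was a weak site, near the level of regions 6 and 8. In fasted livers it stood above region 4, the second strongest site of the fed window, in 2 of 3 libraries.

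Region 11 (chr6:5448434-5449395) lies 0.886 kb from region 10, its nearest neighbour. Its densities were 35.3, 52.1 and 45.3 in fed and 91.6, 56.2 and 107 in fasted libraries. Fasted replicate 2 stood only just above the highest fed library. The log2 difference was 0.96 (SE 0.19).

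On the other side of region 10, differences were smaller in the main fit. Region 8 (chr6:5434810-5435727), 11.4 kb away between centres, measured 19.1, 19.1 and 14.4 in fed and 28.9, 32.2 and 28.8 in fasted libraries, a log2 difference of 0.82 (SE 0.20). That difference exceeded the one of region 11 without fed replicate 1 (0.86 against 0.79) or without fasted replicate 3 (0.90 against 0.83). Region 8 was the one region that rose in which fasted replicate 2 was the highest fasted library. Region 7 (chr6:5429648-5430432) was the weakest of the 8, at 7.36, 5.62 and 6.87 in fed and 9.36, 8.49 and 14.8 in fasted libraries, with a log2 difference of 0.68 (SE 0.23). Its call was lost without any single fed library (0.73, 0.60 and 0.74 without replicates 1, 2 and 3) and without fasted replicate 1 (0.78) or 3 (0.52). It was also lost without centring (0.61), with a replicate block, and with missing values filled. With a pseudocount of 10 its difference was 0.37.

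The other 3 shared regions of the window did not pass. Region 4 (chr6:5420301-5421503) measured 83.9, 57.3 and 46.0 in fed and 49.9, 43.6 and 65.4 in fasted libraries, and the groups overlapped. In fed livers it was second only to region 10, with overlapping ranges, and its log2 difference was -0.14 (SE 0.19). Region 6 (chr6:5423849-5424654) measured 19.5, 16.5 and 13.96 in fed and 17.3, 11.4 and 21.2 in fasted libraries. It had means of 16.6 ± 2.77 in fed and 16.6 ± 4.91 in fasted livers, with a log2 difference of 0.04 (SE 0.22). Region 3 (chr6:5399690-5400520) measured 22.1, 28.9 and 19.7 in fed and 29.8, 25.1 and 46.3 in fasted libraries. Its log2 difference was 0.54 (SE 0.21), and it passed without fed replicate 2 (0.71) or without fasted replicate 2 (0.67).

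The remaining 6 regions lacked a call in some library, and where a call is missing the density is unknown. Region 1 (chr6:5392539-5393723) was called in 2 fed libraries, at 15.4 and 10.8, and in all fasted ones, at 26.7, 24.9 and 16.0. Region 14 (chr6:5461548-5462351) beyond region 12 was called in fed replicate 3 only among fed libraries, at 4.58, and in the fasted ones at 15.3, 7.70 and 9.99. Region 13 (chr6:5460903-5461220), between regions 12 and 14, had a call only in fasted replicate 1, at 8.51. The flank beyond region 12 thus held more calls in fasted than in fed libraries, at low densities. Region 2 (chr6:5398677-5399303) had 2 fed and 3 fasted calls, region 9 (chr6:5436451-5437092) had 3 fed and 2 fasted calls, and both stayed between 5.62 and 11.2. Region 5 (chr6:5422588-5423143) was the one Pdk4 region with fed calls alone, in 2 libraries at 8.09 and 9.37. No Pdk4 region was called in all fasted and no fed libraries.

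Around Txnip, 9 of the 15 regions were called in all 6 libraries, and 2 of these 9 rose in fasted livers (limma, adjusted p under 0.05), against the background of 7.89%. None fell, against 7.84%. As at Pdk4, nothing is read from these shares. Another 4 regions were called in all 3 fasted and no fed libraries, against 1.17% of all regions, from which nothing is read either. Of these 4, regions 8 to 10 are neighbours and lie between the shared regions 7 and 11. The median log2 difference of the 9 shared regions was 0.35.

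**Figure D2:**
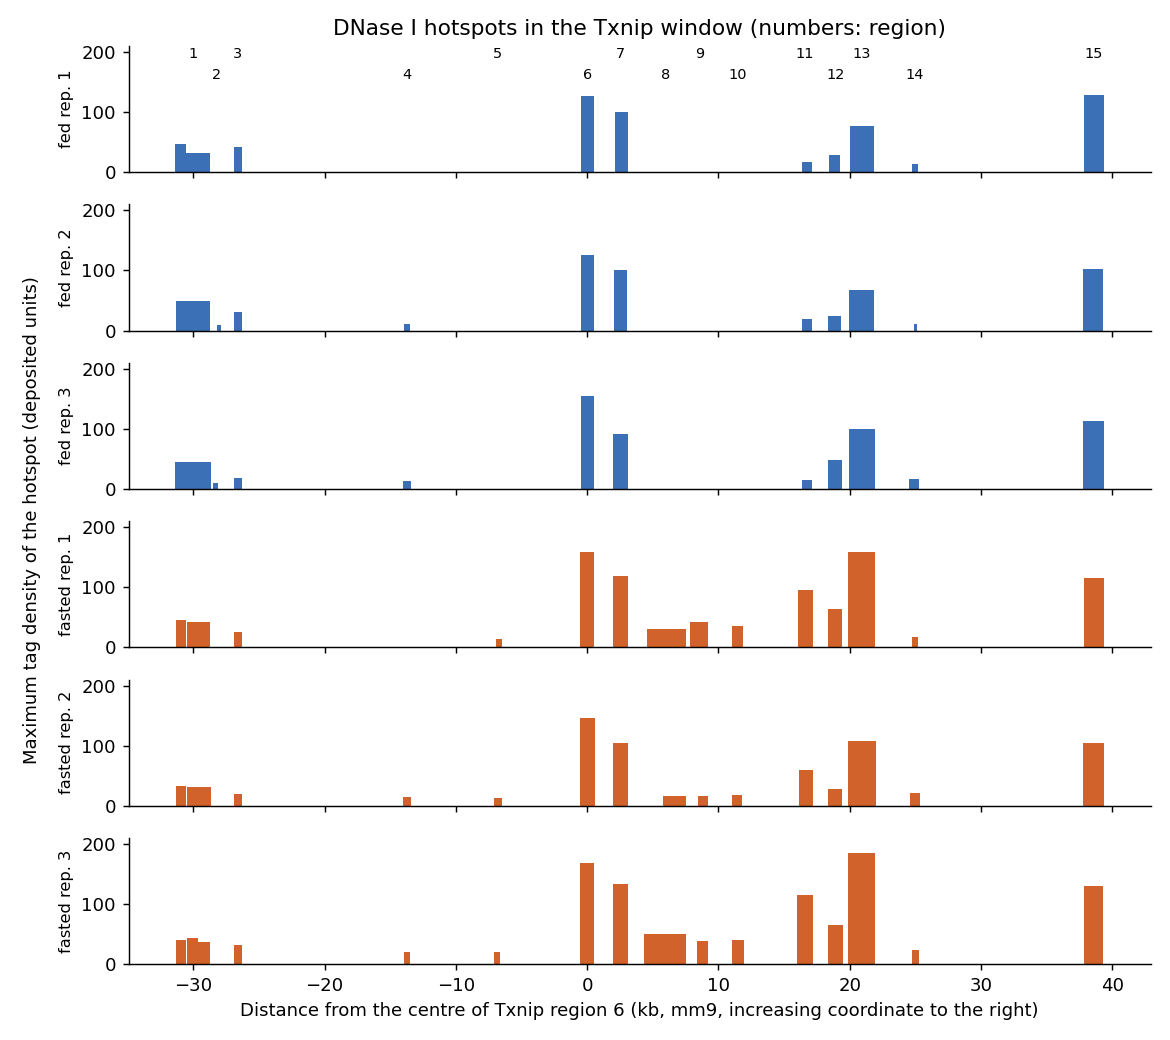
Maximum tag density (y axis, deposited units) of each hotspot in the Txnip window, plotted against distance in kb from the centre of region 6 (x axis), with 1 panel per library, fed in blue and fasted in orange. Regions 8, 9 and 10 have bars in the 3 fasted panels at 16.6 to 50.9 and none in the fed panels. Region 15 at the right stands at 103 to 130 over all 6, with close group means of 115 in fed and 117 in fasted libraries.

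The greatest difference was at region 11 (chr3:96375228-96376477). Its densities were 17.7, 18.7 and 15.3 in fed and 96.2, 59.2 and 115 in fasted libraries. The groups lay far apart, with the lowest fasted library at more than 3 times the highest fed one. Means were 17.2 ± 1.74 and 90.1 ± 28.4 (SD, n = 3 each), and the log2 difference was 2.34 (SE 0.20), at percentile 99.98 of all shared regions. From a place among the weakest of the 9 in fed livers, above region 14 alone, it reached the fifth place in fasted ones.

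Region 13 (chr3:96379104-96381268), 20.9 kb from region 6 between centres, was the other region that rose. Fed densities were 76.5, 67.1 and 99.6, and fasted densities 158, 108 and 186. Fasted replicate 2 stood close to fed replicate 3, the highest fed library, but above it. The log2 difference was 0.94 (SE 0.16). Between regions 11 and 13 lies region 12 (chr3:96377562-96378723), at 29.1, 24.0 and 48.5 in fed and 63.6, 28.0 and 66.0 in fasted libraries. The groups overlapped there, because fed replicate 3 and fasted replicate 2 stood apart from the other libraries of their groups. Its log2 difference of 0.66 (SE 0.26) did not pass, but it passed without fed replicate 3 (0.97) or without fasted replicate 2 (0.99), on average density (0.73), and with the replicate number as a block (0.66).

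The strongest Txnip region was region 6 (chr3:96358690-96359811), at 126, 126 and 155 in fed and 159, 146 and 168 in fasted libraries. Deposited densities overlapped and centred ones did not, and the log2 difference of 0.29 (SE 0.12) did not pass. Without fed replicate 3 it passed at 0.42. Region 7 (chr3:96361208-96362376), 1.40 kb further on, measured 100.0, 101 and 91.8 in fed and 118, 104 and 134 in fasted libraries, a log2 difference of 0.35 (SE 0.13) that did not pass. On average density it passed at 0.43. Both sites were dense in fed as in fasted livers, at percentiles 97.9 and 94.5 of the mean over the 6 libraries.

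Regions 8 to 10 begin 1.22 kb beyond region 7 and end 4.06 kb before region 11. Region 8 (chr3:96363598-96366799) had no fed call and reached 30.4, 16.6 and 50.9 in fasted livers. It was broad, with hotspots covering 2979, 1726 and 3190 bp. Region 9 (chr3:96367083-96368490) reached 42.6, 16.97 and 39.4, and region 10 (chr3:96370254-96371171) reached 35.7, 18.4 and 40.0. In all 3 regions fasted replicate 2 was the lowest. The fed density of these regions is unknown. For scale, 47.5%, 50.03% and 60.2% of the hotspots of the fed lists were weaker than 16.6, the lowest fasted value of regions 8 to 10. These shares come from hotspots elsewhere and do not give the fed density here. Region 5 (chr3:96352154-96352757), on the other side of region 6, was also called in fasted libraries alone, at 14.5, 12.2 and 19.7.

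None of the shared regions towards the ends of the window passed. Regions 2 and 4 lacked calls in some libraries and were not in the main fit. Region 15 (chr3:96397003-96398619) measured 128, 103 and 114 in fed and 116, 104 and 130 in fasted libraries, a log2 difference of 0.10 (SE 0.13). Region 1 (chr3:96327857-96330600), which begins before the window, measured 47.1, 49.5 and 45.1 in fed and 45.7, 32.8 and 42.98 in fasted libraries. Its groups overlapped, with a log2 difference of -0.16 (SE 0.17). Those of region 3 (chr3:96332311-96332995) overlapped too, at 41.9, 31.1 and 18.1 in fed and 25.8, 19.5 and 32.1 in fasted libraries, a difference of -0.10 (SE 0.24). Region 14 (chr3:96383788-96384613) was weak, at 14.0, 11.2 and 15.8 in fed and 17.02, 20.9 and 23.0 in fasted libraries. Its groups did not overlap, but its log2 difference of 0.61 (SE 0.21) did not pass. With quantile normalization it passed at 0.66. Region 4 (chr3:96345204-96345797) was called in 2 libraries of each group, at 11.6 and 14.0 in fed and 14.6 and 20.6 in fasted ones. Region 2 (chr3:96330768-96331333) was called in 2 fed libraries alone, at 8.99 and 9.15.

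**Figure D3:**
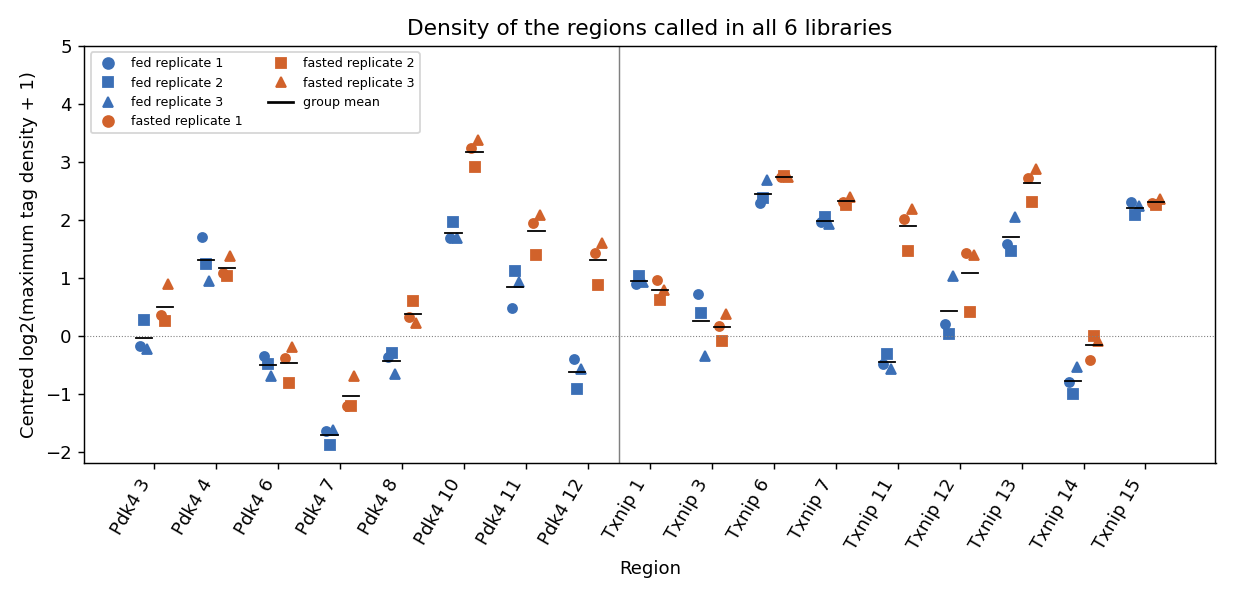
Centred log2(maximum tag density + 1) (y axis) of the 17 regions called in all 6 libraries (x axis, Pdk4 regions on the left and Txnip regions on the right), with 1 point per library and a line at each group mean. Fed points are blue and fasted points orange. Fasted points lie clear of fed ones at Pdk4 region 12 and Txnip region 11, and overlap them at Pdk4 region 4 and Txnip region 15.

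Across both windows, 10 of the 17 shared regions had fasted and fed libraries that did not overlap on centred densities, all with fasted higher, against 16.8% of all shared regions. Fasted replicate 2, the deepest library, was the lowest of the fasted libraries at 13 of 17 regions after centring, and fasted replicate 3 the highest at 12. The part of depth in this was not tested. Among regions passing the threshold, the differences without fasted replicate 2 and in every other refit with that region kept the same sign.

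**Figure D4:**
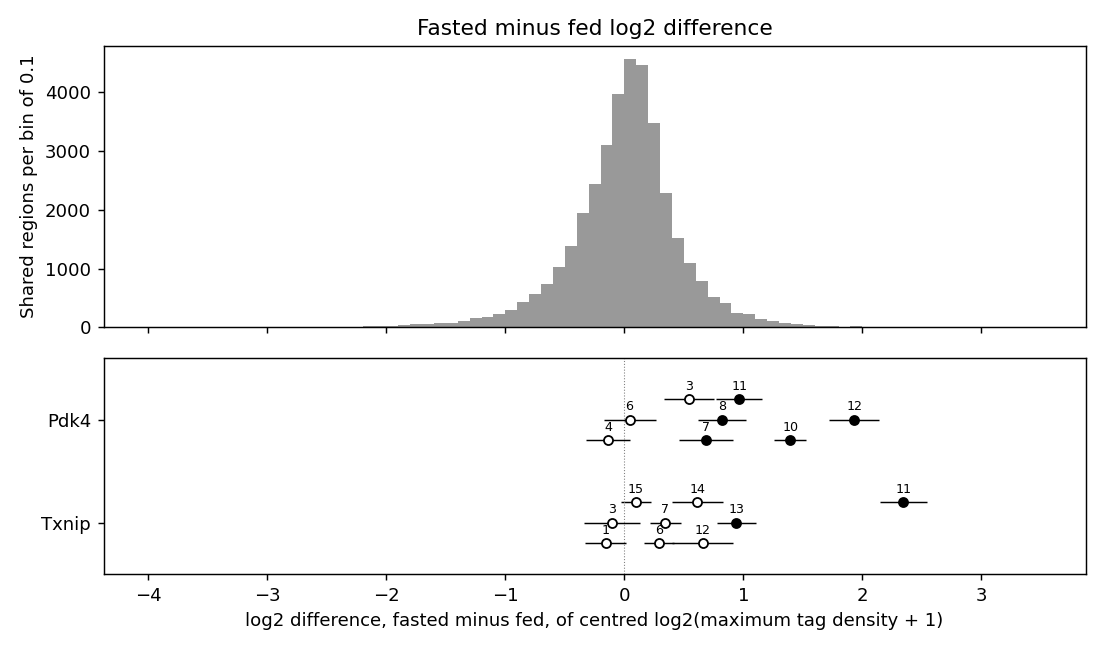
The upper panel is a histogram of the log2 difference (fasted minus fed) of all 37044 shared regions, and the lower panel gives the 8 Pdk4 and 9 Txnip regions on the same x axis, with bars of 1 standard error and filled points for regions past the threshold. Txnip region 11 at 2.34 and Pdk4 region 12 at 1.93 lie in the far right tail, and Pdk4 region 4 and Txnip region 1 lie just left of 0.

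The order of densities within each window differed between fed and fasted livers in which sites were next to each other in height. At Pdk4 the fed order was 10, 4, 11, 3, 8, 6, 12 and 7, where 10 and 4, 4 and 11, 8 and 6, and 6 and 12 overlapped in range. In fasted livers it was 10, 11, 12, 4, 3, 8, 6 and 7, and region 10 stood clear of all others in all libraries. At Txnip the fed order was 6, 15, 7, 13, 1, 12, 3, 11 and 14, where 15 and 7, and 13 and 1, did not overlap in range. The fasted order was 6, 13, 7, 15, 11, 12, 1, 3 and 14. There each of the first 6 overlapped in range with the one after it. By group means, Pdk4 regions 11 and 12 moved ahead of region 4, and region 12 also ahead of regions 3, 8 and 6. Txnip region 13 moved ahead of regions 15 and 7, and region 11 ahead of regions 1, 12 and 3. Some regions that did not pass changed places as well, with region 7 ahead of region 15 and region 12 ahead of region 1 in fasted livers.

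At the 3 regions with the greatest differences hotspots were also longer in fasted libraries. At Pdk4 region 10 they covered 1144, 1281 and 1396 bp in fed and 1637, 1789 and 1637 bp in fasted libraries. Pdk4 region 12 went from 799, 716 and 957 bp to 1268, 1274 and 1230 bp, and Txnip region 11 from 798, 794 and 806 bp to 1098, 1069 and 1249 bp. At Txnip region 15, where density hardly differed, they covered 1518, 1512 and 1612 bp in fed and 1529, 1606 and 1506 bp in fasted libraries. Length and density come from the same hotspot calls and are not independent measures.

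Among shared regions outside both windows, the ones most like these in centred density over the 6 libraries were sought by Euclidean distance. Nearest to Txnip region 11 was chr11:109595431-109596560 (distance 0.70), which went from a mean of 15.8 in fed to 73.1 in fasted livers. Next came chr4:115155706-115159342 (0.94, from 19.7 to 85.0) and chr1:72836852-72837895 (0.97, from 19.7 to 71.3). Nearest to Pdk4 region 12 was chr11:86816712-86817627 (0.52, from 16.4 to 51.0), followed by chr11:76841509-76842752 (0.52, from 16.7 to 61.6) and chr2:154432458-154433347 (0.61, from 15.8 to 48.4). In each of these 6 the mean was more than 2 times as high in fasted livers. That follows from how they were sought, by likeness to regions that rose. Pdk4 region 10 was most like chr12:21573737-21575663 (0.66, from 93.6 to 181), chr11:7094113-7095917 (0.70, from 94.7 to 180) and chr5:137547795-137549463 (0.72, from 90.0 to 177). Txnip region 6 was most like chr18:3336513-3338466 (0.18, from 129 to 151), chr1:157882351-157885068 (0.20, from 131 to 155) and chr14:65276002-65277488 (0.21, from 126 to 163). The 3 nearest to Pdk4 region 10 stayed below its fasted mean of 217, with log2 differences of 0.99 to 1.04 against 1.39. Those nearest to Txnip region 11 likewise stayed below its fasted mean of 90.1, and the nearest of all were those of Txnip region 6. Nothing is read from the lower values, since a region near the top of a range has most others below it.

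The limits of the windows were set by position. Outside the Pdk4 window, a shared region 16.2 kb before it (chr6:5363132-5363768) had densities of 8.47 to 12.5 in fed and 10.8 to 13.3 in fasted libraries. A region 19.5 kb after it (chr6:5539501-5540261) was called in 2 fed and 3 fasted libraries, at 4.74 to 8.78. The region 23.6 kb before the Txnip window (chr3:96303174-96306423) stood at 44.2 to 47.1 in fed and 40.1 to 42.7 in fasted libraries. The region 4.64 kb after it (chr3:96404641-96405277) was called in 3 fed and 2 fasted libraries, at 14.2 to 21.0. The first and the third of these, called in all 6 libraries, had log2 differences of 0.31 (SE 0.22) and -0.07 (SE 0.16), and neither passed.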

How the data were processed

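DNase I hotspots were taken from 6 lists, 1 per liver library (3 fed, 3 fasted for 24 h). Per the labels' protocols, nuclei were digested at 40 U/ml DNase I and fragments of 100 to 500 bp were purified. The submitters' processing notes name CASAVA 1.8 and mm9 as the build. Aligner and hotspot caller, not given in the sources used here, set which weak sites are listed. Per the file headers, the authors give each hotspot a maximum and an average tag density, a coverage signal of unstated scale. The z-score, the authors' own score per hotspot, and the p-value deposited by the authors were not used.

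Hotspots on chromosomes 1 to 19 and X were merged at 1 bp overlap. A region's value is its highest maximum density in a library. Regions called in all 6 libraries were fitted with limma 3.58.1 (R 4.3.3, eBayes with trend) on log2(density + 1), centred on library medians, and the step was tested on simulated data. Python 3.11.15 made the tables. Steps of the density gave relative depth (100% of values within 0.05 step). Members, motifs and tests were chosen with earlier results of these data known. Every region of both windows was described, in full where called in all libraries or in 1 group only, and the 3 nearest regions were sought for the strongest and most different region of each window. Alternatives were pseudocounts, centring, quantile normalization, average density, filled missing values, a density filter, a replicate block, merging within 150 bp, other list rules and leaving out each library. Same-numbered libraries gave no sign of pairing.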

Additional observations from a re-analysis of the deposited data

How the results depend on the processing

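Across the 15 refits of the limma model, the 7 regions that rose kept their sign in 104 of 104 available values and passed in 96. The other 8 values were all of Pdk4 region 7. The 10 regions that did not pass did so in 9 of 148 values, and 8 values changed sign without passing. These were Pdk4 region 4 without fed replicate 1 (0.074), and Pdk4 region 6 without centring (-0.028), without fed replicate 3 (-0.041) or without fasted replicate 3 (-0.084). At Txnip they were region 1 on average density (0.093), region 3 without fed replicate 1 (0.14) or fasted replicate 2 (0.018), and region 15 with quantile normalization (-0.037). Leaving out each replicate ran from -0.30 to 0.074 for Pdk4 region 4, from -0.084 to 0.22 for Pdk4 region 6 and from -0.40 to 0.14 for Txnip region 3. The cause was not tested. The number of Txnip regions that rose, 2, became 4 on average density and 6 when each missing value was set to its library's lowest density, which fixes the direction of the 4 regions called in fasted livers only. Leaving out each replicate gave 2 to 4 Txnip regions, the most without fed replicate 3, and 4 to 6 Pdk4 regions. No region of either window fell in any refit. Over all shared regions, 2921 higher became 1946 without centring, and the upper 50% by density gave 1401 higher and 1540 lower in place of 2905, since fewer regions were tested there. The 4 Txnip regions called in fasted livers only were the same 4 with lists of equal number, with the coverage rule and without each library, and merging within 150 bp also gave 4. At Pdk4 that number, 0, became 1 with lists of equal number (region 14), 1 with hotspots covering at least 50% of the region (region 2), and 0 to 1 on leaving out each replicate (region 14, without fed replicate 3). With the replicate number as a block (replicate block), 2535 regions were higher and 2539 lower, and 4 Pdk4 and 3 Txnip regions rose. Same-numbered libraries correlated at -0.067, -0.030 and -0.167 in their deviations from the group means, and 0 of 6 libraries correlated best with its own number. On the strand as given, the FOXO motif had 0 matches in either stretch and CCAAT had 1, in that of Txnip. Counts for other genes of the pathway were not run, since no mm9 annotation was used here. How far the lower depth of the other libraries hides weak sites is unknown.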
